A study of Mus musculus with 10 samples.

Results

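The genes examined here encode the mTOR kinase, the proteins bound to it in its complexes, and 3 proteins on the pathway's output or control side. There were 10 of them, taken by name from the 21887 protein-coding genes of the RefSeq gene table for GRCm38.p6, the assembly that mm10 also denotes. Mtor encodes the kinase and Mlst8 a subunit shared by both complexes. Rptor and Akt1s1 belong to mTORC1, Rictor and Mapkap1 to mTORC2, and Deptor encodes an inhibitor that binds both. Rps6kb1 and Eif4ebp1 encode substrates of mTORC1, and Ddit4 encodes a stress-induced inhibitor of the pathway. Peaks were read over each gene and the 5 kb on either side.

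mTORC1 senses amino acids, growth factors and energy, and promotes protein and lipid synthesis while holding back autophagy. mTORC2 phosphorylates AKT and related kinases. In macrophages the pathway is known for linking nutrient supply and IL-4 signals to metabolism and polarization. NPM1 (nucleophosmin) is an abundant nucleolar chaperone that also associates with chromatin, and H3K4me3 is a histone mark found at active promoters.

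The study mapped NPM1 and H3K4me3 by CUT&Tag, in which an antibody directs a transposase to cut next to its target. It addressed NPM1 on chromatin of macrophages repairing the infarcted heart. NPM1 was profiled in cardiac macrophages from WT mice at day 3 after a sham operation (sham) or myocardial infarction (infarct). It was also profiled in WT bone marrow-derived macrophages grown for 7 days in 50 ng/ml M-CSF, either untreated at 0 hours (untreated) or after 12 hours of 20 ng/ml IL-4 (IL-4). H3K4me3 was profiled in infarct cardiac macrophages at day 3 from WT mice and from mice with a conditional Npm1 knockout (knockout). The labels do not state which promoter drives that deletion, or whether animals were pooled, and no NPM1 library of knockout cells was analysed here. Each of these 6 groups had 1 library, so differences between groups have no replicate check and no test was made. The other 4 libraries of the series were not analysed here.

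The deposited lists held from 52977 to 104514 peaks. The most frequent background, in reads at a summit, was 1.29 in sham and 3.03 in infarct, and 1.31 in untreated and 4.18 in IL-4. The infarct library was thus 2.35 times and the IL-4 library 3.19 times as deep in background reads as its control, so depth and treatment cannot be told apart in these pairs. The H3K4me3 libraries were closer, with 2.92 in WT and 2.49 in knockout. Of 14 macrophage markers, 10 carried an H3K4me3 peak at a gene end in WT and 14 in knockout. The same counts were 1 and 0 of 8 cardiomyocyte markers, 1 and 3 of 6 fibroblast markers, 1 and 4 of 6 endothelial markers, and 2 and 2 of 6 neutrophil markers. NPM1 end peaks, in the order sham, infarct, untreated and IL-4, were at 3, 13, 0 and 14 of the macrophage markers and at 1, 3, 0 and 4 of the endothelial markers. They were at 1, 2, 0 and 1 of the cardiomyocyte, 1, 0, 0 and 2 of the fibroblast, and 1, 2, 0 and 2 of the neutrophil markers. The part of cell makeup in the NPM1 comparisons was not tested. The macrophage, endothelial and fibroblast H3K4me3 counts were larger in knockout. The share of all protein-coding genes with an H3K4me3 peak at a gene end was also larger, 61.8% in knockout and 57.1% in WT. The part of cell makeup in the genotype comparison below was not tested.

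Sequence at the starts of the genes is shown first, because the end peaks described below lie at or near them. RefSeq's promoter table (GRCm38.p6) held 300 bases, from 250 before to 50 after a transcription start, for 8 of the 10 genes, with 2 starts for Mapkap1. Deptor and Eif4ebp1 were not matched. The start in the table lay within 80 bp of the gene's annotated end for 7 of the 8, while that of Akt1s1 lay 1148 bp inside the gene, outside the 1 kb window used for its start below. The sequences run 5′ to 3′ on the gene's strand, and capitals mark 6- or 7-base motifs in either orientation: GGGCGG (the GC box of SP1-family factors), CCGGAAG (a core of ETS-family sites) and GCATGC (part of the NRF1 site). The first 3 sequences are shown because each holds both GGGCGG and CCGGAAG, and Rps6kb1 because it holds GCATGC at 3 places. Mtor is chr4:148448332-148448631 on the plus strand, Akt1s1 chr7:44850122-44850421 on the plus strand, Mapkap1 (its downstream start) chr2:34406601-34406900 on the plus strand, and Rps6kb1 chr11:86544758-86545057 on the minus strand.
Mtor: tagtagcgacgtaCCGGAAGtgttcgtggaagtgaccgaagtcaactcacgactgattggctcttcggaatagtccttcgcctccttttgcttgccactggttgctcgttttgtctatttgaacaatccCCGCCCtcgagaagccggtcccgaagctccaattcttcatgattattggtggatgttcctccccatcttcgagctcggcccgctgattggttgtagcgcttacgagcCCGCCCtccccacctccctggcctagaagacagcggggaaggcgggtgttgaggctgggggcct
Akt1s1: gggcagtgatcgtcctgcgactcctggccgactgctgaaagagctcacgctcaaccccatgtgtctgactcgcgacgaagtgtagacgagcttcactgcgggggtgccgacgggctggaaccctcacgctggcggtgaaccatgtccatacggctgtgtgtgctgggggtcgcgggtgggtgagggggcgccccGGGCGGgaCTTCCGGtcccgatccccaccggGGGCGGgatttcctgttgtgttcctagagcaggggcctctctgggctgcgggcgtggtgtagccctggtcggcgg
Mapkap1: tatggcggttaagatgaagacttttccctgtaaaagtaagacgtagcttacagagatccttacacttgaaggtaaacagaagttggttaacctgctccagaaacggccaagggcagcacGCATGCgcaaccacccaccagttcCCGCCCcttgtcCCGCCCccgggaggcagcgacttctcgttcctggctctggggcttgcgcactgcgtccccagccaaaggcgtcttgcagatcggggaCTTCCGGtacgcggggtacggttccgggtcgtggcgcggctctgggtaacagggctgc
Rps6kb1: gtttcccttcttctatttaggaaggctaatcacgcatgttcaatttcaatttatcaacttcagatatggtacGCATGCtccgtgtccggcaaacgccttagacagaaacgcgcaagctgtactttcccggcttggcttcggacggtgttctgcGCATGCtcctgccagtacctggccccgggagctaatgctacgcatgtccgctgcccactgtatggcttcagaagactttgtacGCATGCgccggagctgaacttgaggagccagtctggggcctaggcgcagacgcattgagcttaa
GGGCGG was found in 5 of the 8 genes (Akt1s1, Ddit4, Mapkap1, Mtor and Rictor), beside 46.2% of all 21263 promoters in the table. CCGGAAG was found in 3, beside 11.6%. GCATGC, a motif added after the sequences were seen, was found in Mapkap1 and Rps6kb1, beside 8.19%. The E-box CACGTG, read by TFEB and MYC, and TGACGT, a core of CREB and ATF sites, were in none of these 300-base windows, beside 7.84% and 8.49% of all promoters. The median GC content was 57.7% over the 9 windows and 56.3% over all promoters. The median number of CG dinucleotides was 21 and 13.

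A further pair of windows shows where infarct NPM1 peaks stopped. In Rptor (chr11:119602655-119602954, plus strand) and Rictor (chr15:6708131-6708430, plus strand), capitals mark the bases inside the infarct NPM1 peak.
Rptor: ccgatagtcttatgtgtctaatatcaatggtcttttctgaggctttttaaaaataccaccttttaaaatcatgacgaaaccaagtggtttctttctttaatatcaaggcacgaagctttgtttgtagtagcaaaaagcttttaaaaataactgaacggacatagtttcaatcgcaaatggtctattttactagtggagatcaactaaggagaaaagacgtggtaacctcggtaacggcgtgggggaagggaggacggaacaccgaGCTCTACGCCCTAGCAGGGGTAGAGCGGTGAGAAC
Rictor: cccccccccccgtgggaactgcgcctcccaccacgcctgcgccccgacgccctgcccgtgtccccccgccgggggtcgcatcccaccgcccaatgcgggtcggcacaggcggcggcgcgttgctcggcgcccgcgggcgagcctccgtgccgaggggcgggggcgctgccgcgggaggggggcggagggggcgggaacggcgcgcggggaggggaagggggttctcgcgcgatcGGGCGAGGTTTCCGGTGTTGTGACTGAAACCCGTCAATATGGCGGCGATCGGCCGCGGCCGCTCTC
The infarct peak covered the last 35 bases of the Rptor window and the last 66 of the Rictor window, and Rictor had a further infarct peak before this window, described below. These limits differed between lists: IL-4 peaks covered 135 bases of the Rptor window and 0 of the Rictor window. At Mtor, Rps6kb1 and Ddit4 the infarct peak covered all 300 bases, and at Mlst8 it covered 291. In the Akt1s1 window, which lies inside the gene, it covered 117 bases and the IL-4 peak covered 300. There the WT H3K4me3 peaks covered 0 and the knockout peaks 300, and the WT peak at the annotated Akt1s1 start lay before this window.

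NPM1 was called at an end of every one of the 10 genes in infarct cardiac macrophages and in IL-4 macrophages, and at few of them in the controls. An end peak here is a peak reaching the 1 kb on either side of either annotated gene end. The infarct list had one at 10 of 10 genes, beside 50.6% of all protein-coding genes, and the sham list at 3 of 10, beside 10.9%. The IL-4 list had one at 10 of 10, beside 51.2%, and the untreated list at 1 of 10, beside 6.71%. At 7 genes the end peak was in infarct and not in sham, beside 43.4% of all genes, and the exceptions were Mlst8, Deptor and Mapkap1. At 9 genes it was in IL-4 and not in untreated, beside 46.5%, and the exception was Mlst8. All 10 had one in both infarct and IL-4, beside 43.5%. With the infarct reads scaled down to the sham background, the infarct count stayed at 10, and with the IL-4 reads scaled to the untreated background 9 genes remained, without Rictor. This scaling was run for the 10 genes alone, so no share of all genes stands beside it. Depth and treatment are not separated by it.

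Of the 3 sham peaks, only the one at Mapkap1 lay at a start. Strand was known for 17492 genes and 8 of the 10. At the start end, sham had a peak at 1 of 8, beside 5.55%, infarct at 8, beside 46.3%, untreated at 1, beside 4.77%, and IL-4 at 8, beside 46.5%. H3K4me3 peaks lay at the start end of all 8 in WT, beside 54.3%, and in knockout, beside 59.4%. Counting both ends, all 10 genes had an H3K4me3 peak in WT, beside 57.1%, and in knockout, beside 61.8%. The NPM1 shares above are over all genes, with or without an H3K4me3 peak. NPM1 shares among H3K4me3-marked genes alone were not computed.

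**Figure D1:**
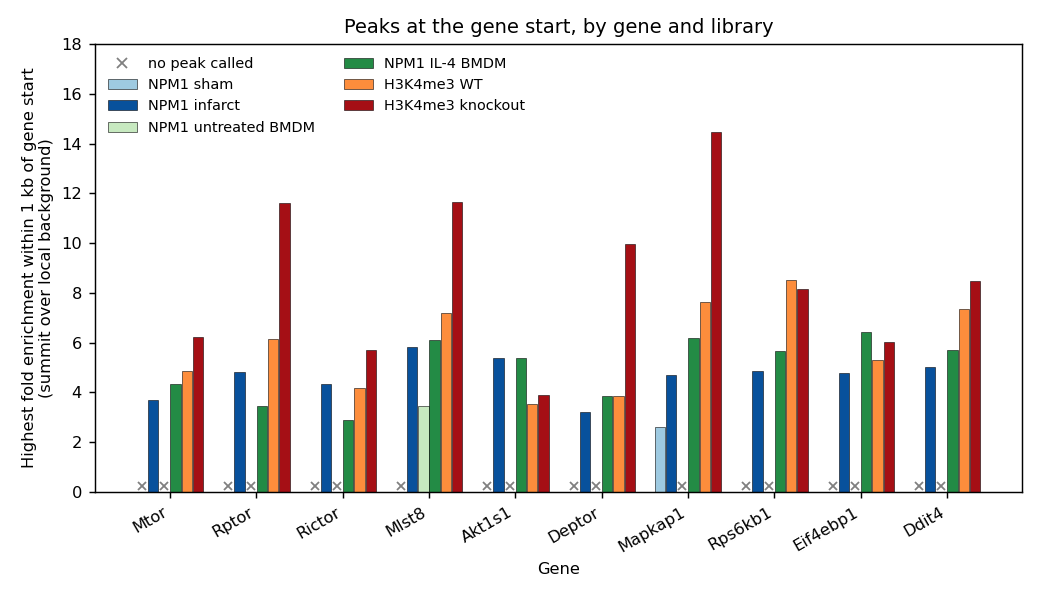
Highest fold enrichment of a peak within 1 kb of the gene start (y axis, summit reads over local background, each with 1 added) for each of the 10 genes (x axis) in the 6 lists (bars), with a cross where no peak was called. For Deptor and Eif4ebp1, whose strand was not known, the end carrying H3K4me3 was used. Sham has a bar at Mapkap1 alone and untreated at Mlst8 alone, while infarct, IL-4 and both H3K4me3 lists have a bar at all 10 genes.

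Fold enrichment, −log10 q and rank are the authors' values for each peak. They order peaks within a list. Across lists they also move with depth and enrichment, so they are set side by side only. The local background is the expected number of reads that the peak caller set at that summit.

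The kinase gene itself was not among the strongest. Mtor (chr4:148448582-148557685, 109.1 kb) had no NPM1 end peak in sham or untreated. In infarct a 526 bp peak had its summit at −179 bp from the start, with 18 reads over a local background of 4.16, a fold of 3.68, a −log10 q of 4.15 and rank 16877 of 79893. In IL-4 a 351 bp peak had its summit at −108 bp, with 24 reads over 4.78, a fold of 4.33, a −log10 q of 7.26 and rank 15020 of 104514. The infarct and IL-4 summits were 71 bp apart, and a weaker IL-4 peak followed at 450 bp inside the gene (fold 2.60). The far end of Mtor lies 733 bp from Exosc10, and that end carried H3K4me3 and no NPM1 peak.

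Mlst8, which encodes a shared scaffold of both complexes, had the broadest record. Mlst8 (chr17:24473550-24479114, minus strand) was the 1 gene of the 10 with an end peak in all 6 lists, a pattern shared by 223 genes (1.02%). At its start the infarct peak reached 41 reads over 6.20, with a fold of 5.83, a −log10 q of 16.8 and rank 2904. The IL-4 peak reached 48 reads over 7.00, with a fold of 6.13, a −log10 q of 20.7 and rank 3486. Untreated macrophages had a 200 bp peak at the same place with 7 reads and a fold of 3.46. The sham peak lay at the other end, 4.5 kb from the start and within the overlapping gene Bricd5, so sham had no peak at the Mlst8 start.

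Among the mTORC1 genes, Rptor encodes the subunit that recruits substrates and Akt1s1 encodes PRAS40, an inhibitory subunit. At the Rptor start (chr11:119602905-119899591, 296.7 kb) the infarct peak had 23 reads over 3.98, a fold of 4.82, a −log10 q of 7.85 and rank 8212. The IL-4 peak there had 18 reads over 4.52, a fold of 3.44, a −log10 q of 3.87 and rank 32451. Rptor thus had fewer reads in the deeper of these libraries. Rictor did too, and at the other 8 genes the IL-4 summit had more.

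Akt1s1 (chr7:44849224-44855421, 6.2 kb) had the strongest NPM1 end peak of the 10 genes by −log10 q in both lists. Its infarct peak was 1732 bp wide with 93 reads over 16.5, a fold of 5.38, a −log10 q of 34.5 and rank 792. Its IL-4 peak was 2038 bp wide with 97 reads over 17.2, a fold of 5.38, a −log10 q of 36.2 and rank 1241. Both peaks also reached the end of Tbc1d17, 144 bp away, and the infarct summit lay at −145 bp from Akt1s1, outside the gene, so the signal cannot be assigned to either gene. A second peak lay near the far end of Akt1s1 in both lists, with folds of 3.33 in infarct and 3.16 in IL-4. Sham and untreated lists had no peak at either end.

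Deptor (chr15:55112317-55259273, 147.0 kb) had the weakest infarct end peak. The peak at its H3K4me3-marked end had 12 reads over 3.03, a fold of 3.22, a −log10 q of 2.14 and rank 35202. In IL-4 the peak there had 19 reads over 4.18, a fold of 3.86, a −log10 q of 4.94 and rank 23466. The sham peak of 7 reads lay beyond the opposite end of the gene, 147.6 kb away, and untreated had none.

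In mTORC2, Rictor encodes the defining scaffold and Mapkap1 encodes SIN1, which positions AKT. At Rictor (chr15:6708349-6800401, 92.1 kb) the infarct peak lay 290 bp inside the gene, with 17 reads over 3.16, a fold of 4.33, a −log10 q of 5.13 and rank 13623. A smaller infarct peak had its summit at −756 bp, with a fold of 2.73. The IL-4 list had a pair of weak peaks, at 401 bp with 11 reads and a fold of 2.32, and at 888 bp with 14 reads and a fold of 2.89. Rictor had the lowest IL-4 fold of the 10 genes at the start.

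Mapkap1 (chr2:34406771-34624958, 218.2 kb) was the 1 gene with a sham peak at its start. That peak had 5 reads over 1.29, a fold of 2.62 and a −log10 q of 0.431, at rank 57032 of 58011, near the bottom of the list. The infarct peak had 18 reads over 3.03, a fold of 4.71, a −log10 q of 6.11 and rank 10906. The IL-4 peak had 31 reads over 4.18, a fold of 6.18, a −log10 q of 14.0 and rank 6263. All 3 summits lay within the first 172 bp of the gene.

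The strongest end peaks of Rps6kb1, Eif4ebp1 and Ddit4 ranked within the top 9.79% of the infarct list and the top 6.37% of the IL-4 list. Rps6kb1 (chr11:86498869-86544885, minus strand), which encodes the S6 kinase, had an infarct peak of 24 reads over 4.14, with a fold of 4.86, a −log10 q of 8.26 and rank 7824. Its IL-4 peak had 33 reads over 5.0, a fold of 5.67, a −log10 q of 13.5 and rank 6657. Tubd1 starts 105 bp away on the other strand and shares both peaks, so this is a joint promoter region and the peaks cannot be assigned to one gene.

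Eif4ebp1 (chr8:27260327-27275656, 15.3 kb) encodes a repressor of cap-dependent translation that mTORC1 inactivates. In infarct 1 peak of 1573 bp covered its H3K4me3-marked end, with 33 reads over 6.14, a fold of 4.76, a −log10 q of 10.9 and rank 5486. In IL-4 the same stretch was called as 2 peaks, with summits at 61 and 877 bp, 50 and 45 reads, folds of 6.44 and 6.01, and −log10 q of 22.6 and 19.1. The infarct and upstream IL-4 summits fell on the same base. WT H3K4me3 was likewise called as 2 peaks there, at 29 and 835 bp.

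Ddit4 (chr10:59949675-59951770, minus strand, 2.1 kb) encodes REDD1, which restrains mTORC1 under stress. The infarct peak had its summit at −19 bp from the start, with 30 reads over 5.18, a fold of 5.02, a −log10 q of 10.6 and rank 5647. The IL-4 peak had its summit at −50 bp, with 42 reads over 6.54, a fold of 5.70, a −log10 q of 17.0 and rank 4751. Neither control list had a peak within 1 kb of either end.

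**Figure D2:**
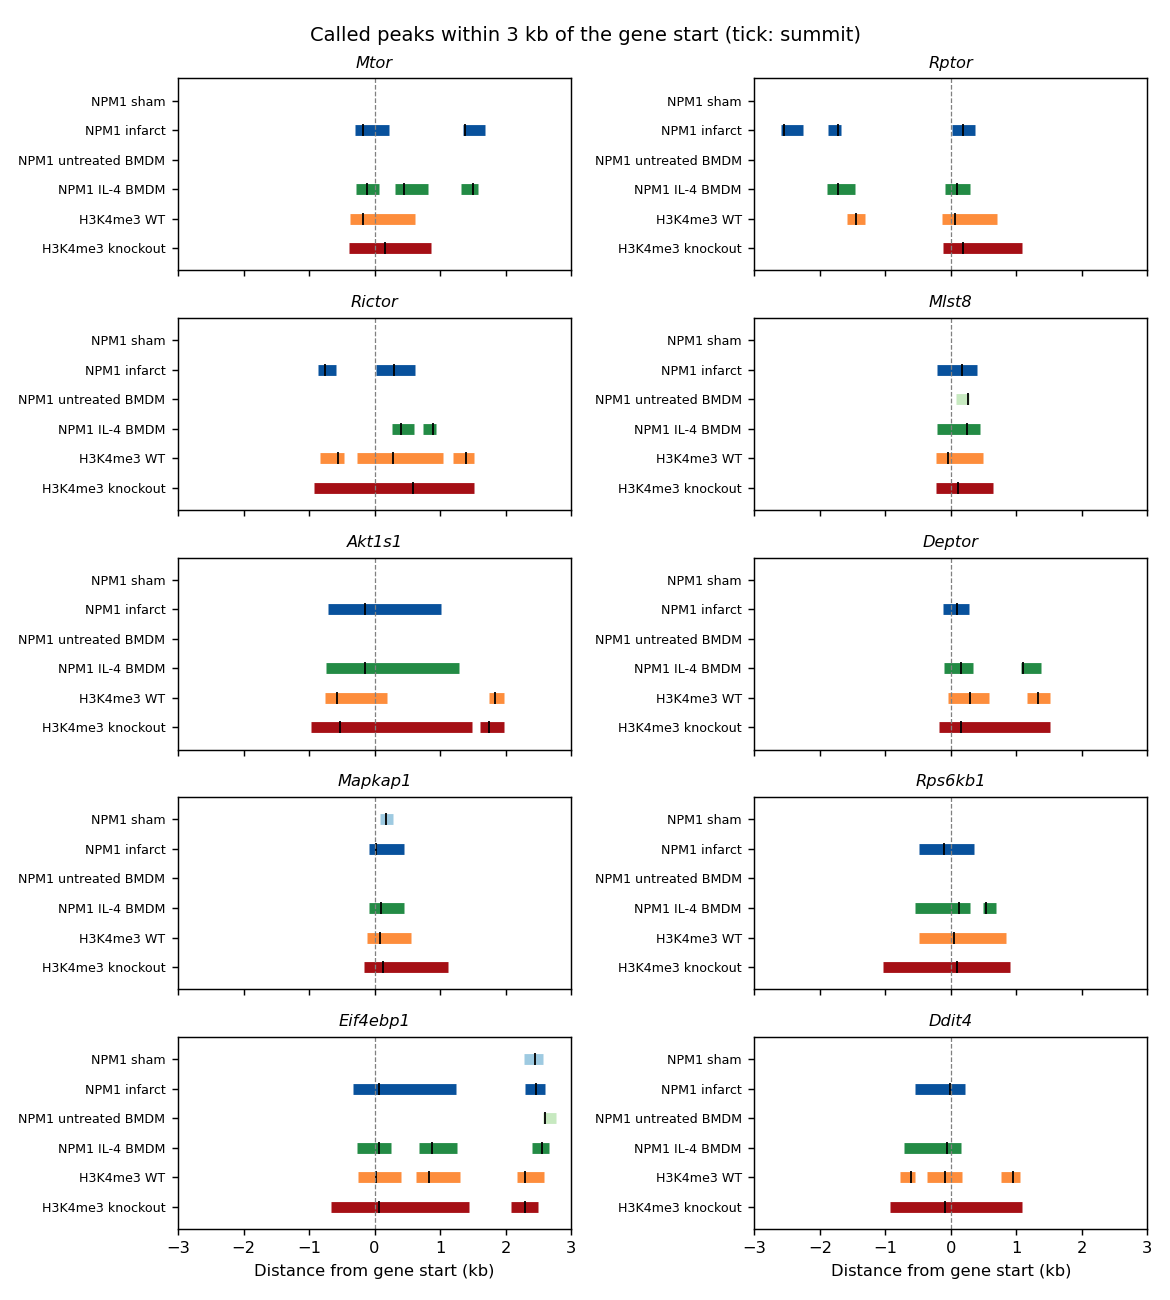
Called peaks (bars) and summits (ticks) in the 6 lists within 3 kb of the start of each gene (x axis, kb, positive into the gene). Deptor and Eif4ebp1 are drawn from their H3K4me3-marked end. The infarct and IL-4 NPM1 peaks lie over the H3K4me3 peaks at the start. The knockout H3K4me3 bars cover more bases within 2 kb than the WT bars, as at Akt1s1 (2845 against 1180 bp), but do not reach farther on both sides at every gene.

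A stricter limit on the peaks removed the control end peaks and kept most of the rest. Because −log10 q moves with depth and the controls were the shallower libraries, depth and treatment cannot be told apart here either. With a −log10 q of 5 or more, the sham list had an end peak at 0 of 10 genes, beside 0.681% of all genes, and the untreated list at 0, beside 0.397%. Infarct kept 8, without Mtor and Deptor, beside 27.9%. IL-4 kept 7, without Rptor, Rictor and Deptor, beside 29.4%. Over the 10 starts the median was 23.5 reads in infarct and 32.0 in IL-4, beside 22.0 and 25.0 over all genes with a peak there. The ratio of IL-4 to infarct reads had a median of 1.35 over the 10 genes, from 0.783 at Rptor to 1.72 at Mapkap1, and of 1.16 over 8690 genes. The background reads of these libraries were 4.18 and 3.03.

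Within infarct macrophages, NPM1 and H3K4me3 lay together at these genes. At all 10 genes an infarct end peak overlapped a WT H3K4me3 peak by at least 1 bp, beside 85.6% of the 11072 genes with an infarct end peak. This counts genes, not peaks: the infarct peak at the far end of Rptor overlapped no WT H3K4me3 peak. The summits were 2 bp apart at Mtor and at Rictor, 32 bp apart at Eif4ebp1 and 427 bp apart at Akt1s1. Their median distance was 95.5 bp, beside 97.0 bp over 9318 genes. Between infarct and IL-4 the NPM1 summits were a median of 73.0 bp apart, beside 68.0 bp over 8994 genes.

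H3K4me3 peaks covered more bases in knockout than in WT at all 10 genes, as they did at 97.5% of the 11685 genes marked in both. This count reads the gene end with the higher H3K4me3 fold. For Mtor that was the far end (646 bp in WT, 1526 bp in knockout), where the peaks lie over the start of Exosc10. At the starts, covered bases within 2 kb went from 995 to 1254 at Mtor, from 1106 to 1195 at Rptor and from 719 to 870 at Mlst8, the smallest differences among the 10. They went from 1180 to 2845 at Akt1s1, a gain larger than at 98.8% of genes, and part of it lies over Tbc1d17. Ddit4 went from 1044 to 2022 bp, with 3 peaks in WT and 1 in knockout that ran from −926 to 1095 bp around the start.

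The remaining starts lay between these. Rictor went from 1998 to 2443 bp and from 3 peaks to 1. Deptor went from 973 to 1694 bp, Mapkap1 from 662 to 1293, Rps6kb1 from 1332 to 1939 and Eif4ebp1 from 1321 to 2104. The median gain at the starts was 619 bp over the 10 genes and 578 bp over 11250 genes. The opposite end of Eif4ebp1 went the other way, with 540 bp covered in WT and 0 in knockout.

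Summit height showed the genotype difference on another scale. At Mtor the start had 35 H3K4me3 reads in WT and 215 in knockout. At Mlst8, the highest of the 10 in both, it had 60 and 287. Rictor had 21 and 144, and Deptor, the lowest in WT within 1 kb, had 19 and 195. A taller WT peak of Deptor, with 28 reads, had its summit 1325 bp inside the gene, beyond that window. The knockout peak at this end spanned both WT peaks, so the Deptor ratio depends on the window. The ratio of knockout to WT reads ran from 4.05 at Rps6kb1 to 10.3 at Deptor, with a median of 5.55, and its median over 11250 genes was 5.63. The difference at these 10 genes was thus close to that at all genes, while the background reads of the knockout library were lower than those of WT.

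Fold enrichment differed less between the genotypes than reads did, and the local background it is divided by was also higher in knockout, at Mtor 33.6 against 6.40 reads. Folds at the start went from 4.87 to 6.24 at Mtor, from 6.16 to 11.6 at Rptor, from 7.65 to 14.5 at Mapkap1 and from 3.88 to 9.98 at Deptor. The taller WT peak of Deptor outside the window had a fold of 5.60. Rps6kb1 had the 1 lower fold, 8.50 in WT and 8.16 in knockout. At the ends ranked by H3K4me3, 9 of the 10 genes and 94.7% of 11467 genes had a higher fold in knockout. Mtor was again read at its far end, over the start of Exosc10. With 1 library per genotype, the genotype and the library cannot be told apart.

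**Figure D3:**
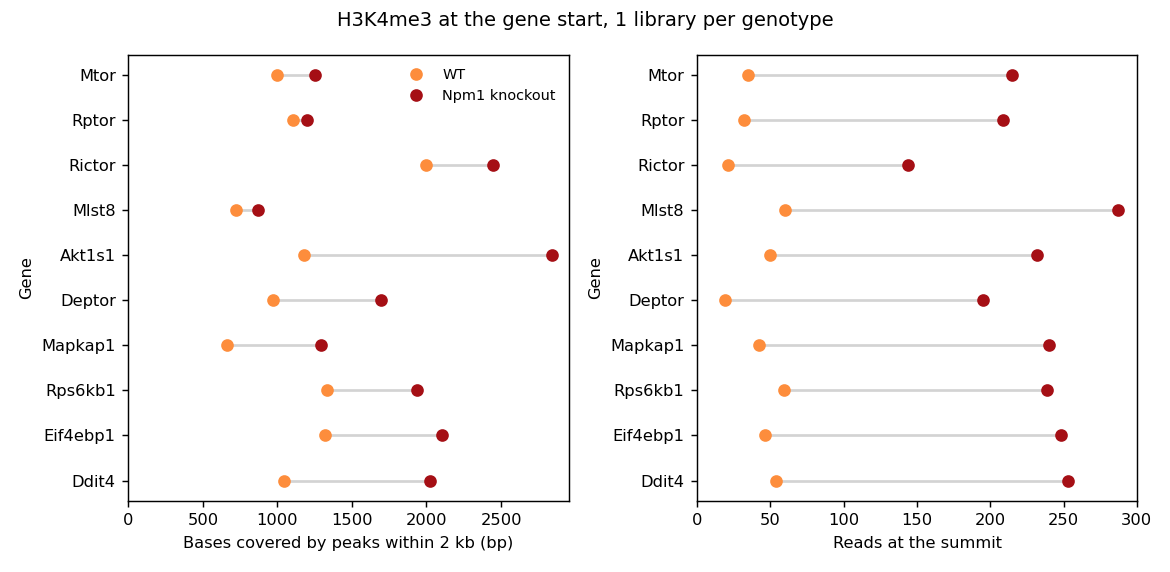
Bases covered by H3K4me3 peaks within 2 kb of the start (left, bp) and reads at the highest summit within 1 kb (right) in the WT and Npm1 knockout libraries, 1 point per gene and library, joined by a line. Every knockout point lies to the right of its WT point. The gain in covered bases is smallest at Rptor (89 bp) and largest at Akt1s1 (1665 bp).

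Away from the ends, NPM1 peaks were scattered through the longer genes. An interior peak lies wholly inside a gene, over 1 kb from both ends, which leaves room in 9 of the 10 genes (not Ddit4) and in 19168 of all. Sham had one in 6 of 9, beside 42.6% of all such genes, and infarct in 7, beside 54.0%. Untreated had one in 6, beside 28.5%, and IL-4 in 7, beside 56.1%. H3K4me3 had one in 7 in WT, beside 52.0%, and in 7 in knockout, beside 44.3%. Of these genes, 5 are over 90 kb long, so densities per length are compared next, against genes within 1.5 times the same length.

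Rptor differed from the other long genes. It held 40 interior infarct peaks, or 13.6 per 100 kb, beside a median of 1.97 over 716 genes of similar length, of which 4 were as dense or denser. IL-4 placed 30 peaks there (10.2 per 100 kb, with 30 of the 716 as dense). Sham placed 10 (3.39 per 100 kb, with 143 as dense) and untreated 4 (1.36 per 100 kb, with 444 as dense). H3K4me3 had 18 in WT and 16 in knockout, with 68 and 49 of the 716 as dense.

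The surroundings of Rptor also held many peaks. Peaks at any position, gene ends included, were counted in the 1 Mb on either side, leaving out the nearest 5 kb. The infarct list had 12.9 per 100 kb there and the IL-4 list 12.7. Interior peaks alone, an unlike measure, ran at 3.59 and 4.10 over all protein-coding genes. Sham had 6.03 and untreated 1.41 in the surroundings, against 3.39 and 1.36 inside Rptor. H3K4me3 had 11.2 in WT and 10.05 in knockout, against 6.11 and 5.43 inside Rptor. Few of the Rptor interior infarct peaks were strong: 25 of the 40 had a q of 0.05 or less, and 6 had a −log10 q of 5 or more. Of the 716 genes of similar length, 15 had at least as many of the latter. The median fold of the 40 peaks was 2.87, beside 2.98 over the whole infarct list, where 27.6% of peaks had a q above 0.05.

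The other long genes held fewer infarct peaks per 100 kb than Rptor. Mtor and Mapkap1 were above the median of genes of similar length (2.79 and 2.37), and Deptor and Rictor below it (2.77 and 3.04). Mtor had 6 interior infarct peaks (5.60 per 100 kb, with 635 of 2162 genes of similar length as dense or denser), all with a fold under that of its start peak. Mapkap1 had 8 (3.70 per 100 kb, with 365 of 1036 as dense or denser). Deptor had 3 (2.07 per 100 kb, 936 of 1617) and Rictor 2 (2.22 per 100 kb, 1456 of 2461). Deptor and Rps6kb1 had more interior peaks in untreated than in IL-4, 4 against 2 and 1 against 0, of 7 or 8 reads each in untreated.

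**Figure D4:**
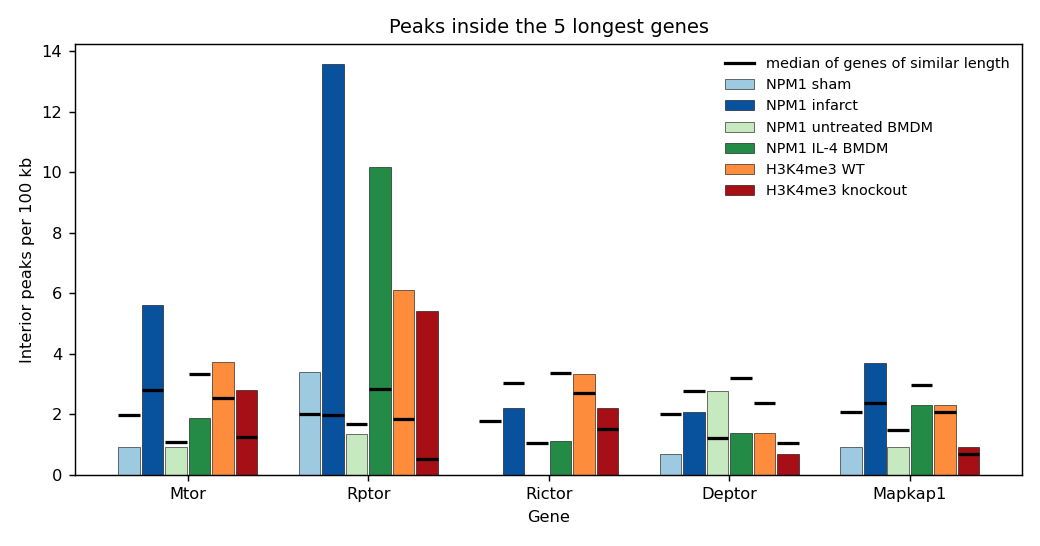
Interior peaks per 100 kb (y axis) in the 5 longest genes (x axis) for the 6 lists (bars), with the median of genes of similar length as a black line on each bar. Rptor stands at 13.6 in infarct and 10.2 in IL-4, while the infarct bars of the other 4 genes lie between 2.07 and 5.60.

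A few interior sites of Rptor recurred between lists. The clearest lay 210.7 kb into the gene (chr11:119813309-119813977) and was called in every list but untreated. In sham it had 23 reads over 1.54, a fold of 9.45, a −log10 q of 15.8 and rank 1078 of 58011, the strongest sham peak in any of the 10 genes. In infarct it had the same 23 reads over a background of 5.08, with a fold of 3.95 and a −log10 q of 5.92. In IL-4 it had 46 reads and a fold of 6.37.

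H3K4me3 was called there too, with 32 reads and a fold of 6.09 in WT and 37 reads and a fold of 8.68 in knockout. The knockout to WT difference in reads at this site was small beside that at the Rptor start, 32 against 209. Sites at 82.2 and 113.1 kb were called in the same 5 lists, and at each of these 3 sites the peaks shared a base in all 5. A merged region at 74.3 kb joined neighbouring peaks with no base common to all 5 lists: infarct and IL-4 summits lay at 74.1 and 74.3 kb, with folds of 4.53 and 6.51, and the sham summit at 75.0 kb, with a fold of 3.72. Of 65 merged interior regions of Rptor, 44 were in 1 list and 18 in both infarct and IL-4. Of all merged regions in or near protein-coding genes, interior or not, 61.5% were in 1 list. The share in both infarct and IL-4 was not computed over all regions.

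**Figure D5:**
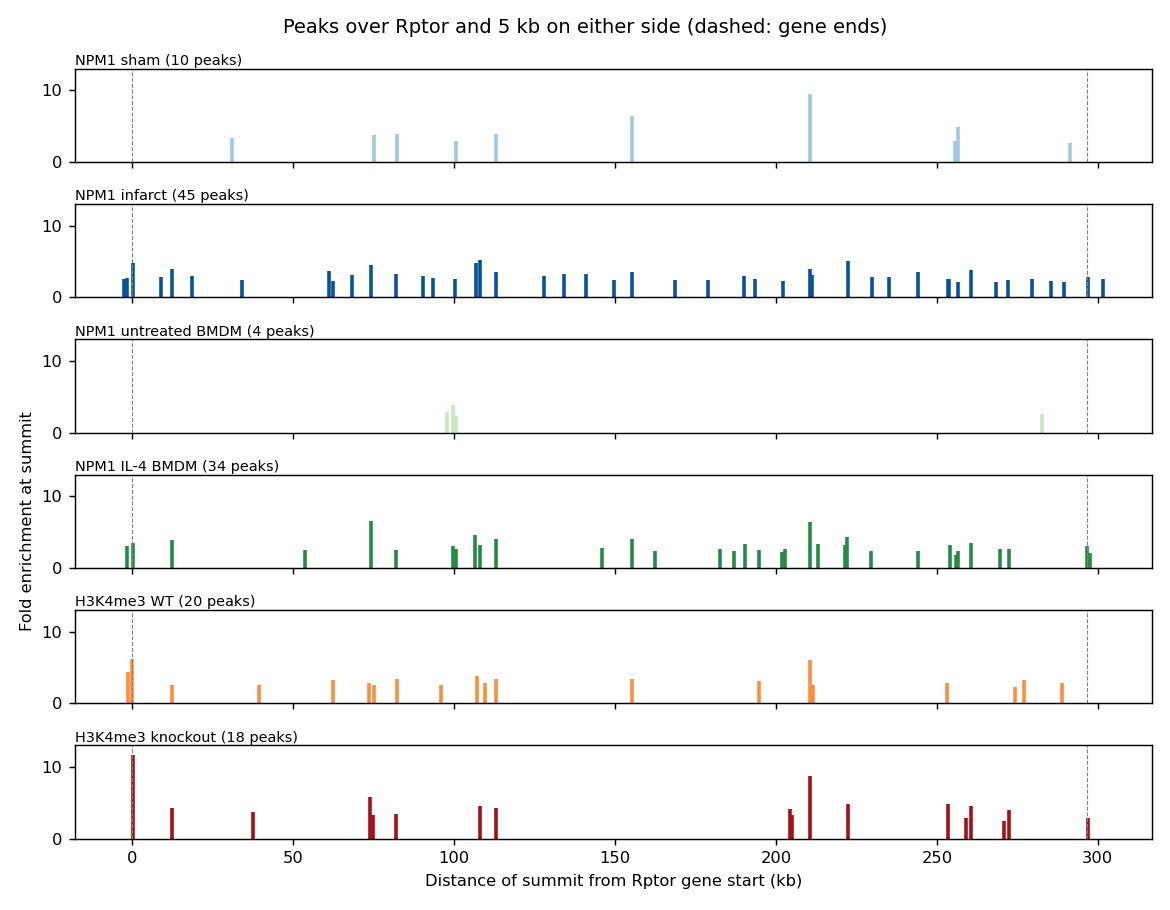
Summits of all peaks over Rptor and the 5 kb on either side, by distance from the gene start (x axis, kb) and fold enrichment (y axis), with 1 panel for each list and dashed lines at the gene ends. Infarct has 45 peaks and IL-4 34, mostly of low fold, and the site 210.7 kb from the start stands out in sham with a fold of 9.45.

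Overlapping peaks of the 6 lists were merged into regions, so a region can chain peaks that do not all overlap. Across the 10 genes, 150 merged regions were called in at least 1 list. Of these, 99 (66.0%) were in 1 list only, near the 61.5% of the 133770 regions in or near protein-coding genes. Of the 150, those in 5 or 6 lists numbered 7, beside 3.26% of the 133770. They were the 4 Rptor sites above, the starts of Mlst8 and Mapkap1, and a site inside Eif4ebp1. The Eif4ebp1 site (chr8:27262403-27263103), 2.4 kb from the marked end, was the 1 merged region with peaks of all 6 lists, as were 0.897% of such regions. No base of it was covered in all 6: at most 5 lists met on 1 base, and the untreated peak overlapped neither the sham nor the knockout peak. Its sham peak had 12 reads over 1.48 and a fold of 5.24, and its untreated peak had 3 reads and a fold of 2.59.

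Mapkap1 held an NPM1 site far from its start. A peak 203 kb into the gene (chr2:34609476-34609962) had 20 reads and a fold of 5.15 in infarct and 24 reads and a fold of 4.82 in IL-4. Its infarct fold was above the 4.71 of the Mapkap1 start. The WT H3K4me3 list had no peak there, and knockout had a weak one with a fold of 3.44.

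A list of 37 other pathway genes was read in the same way. An end peak was called at 32 of 37 in infarct, 4 in sham, 29 in IL-4 and 3 in untreated, or 86.5%, 10.8%, 78.4% and 8.11%. The shares over all genes were 50.6%, 10.9%, 51.2% and 6.71%, so the control lists were near theirs. All genes here include those without an H3K4me3 peak, and shares among H3K4me3-marked genes alone were not computed. At 29 of the 37 it was in infarct and not in sham, beside 43.4% of all genes, with Ddit4l the other way. At 27 it was in IL-4 and not in untreated, beside 46.5%, with Prr5l the other way. The strongest by −log10 q were Atf4 (37.8), Ulk1 (34.8) and Srebf2 (30.3) in infarct, and Srebf2 (38.6), Ulk1 (35.0) and Maf1 (32.5) in IL-4. Atf4 drives amino acid synthesis genes, Ulk1 starts autophagy, Srebf2 controls sterol synthesis and Maf1 represses RNA polymerase III. H3K4me3 was at 28 of the 37 in WT (75.7%), beside 57.1% of all genes, and at 32 in knockout (86.5%), beside 61.8%. Of 27 marked in both, 26 covered more bases in knockout, near the 97.5% of all genes marked in both, and the exception was Eif4ebp3.

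The pattern of end peaks at Mtor was a common one. Mtor and 6 more of the 10 genes had end peaks in infarct, IL-4 and both H3K4me3 lists and in neither control, as did 32.4% of all protein-coding genes. Deptor and Mapkap1 had that pattern plus sham (4.07%). Likeness to Mtor was measured as the summed difference, over the 6 lists, in the within-list percentile of the strongest end peak. The nearest genes were Bcas2 (4.21 percentile points), 1810030O07Rik (4.34) and Slc29a3 (5.18).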

How the data were processed

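CUT&Tag libraries of mouse macrophages were read from 6 deposited peak lists, 1 library per group. The submitters' processing notes name genome build mm10 and the tools MACS2 2.2.7.1, Bowtie2, deepTools and bcl2fastq 2.17. Tool settings, duplicate removal and use of a control library were not given in the sources used here. Peaks were called by the authors on each library separately. Each list gives, per the file headers and values, a deposited score, a deposited fold enrichment (a ratio of summit to local background, each with 1 added), and the authors' −log10 p and −log10 q. The lowest −log10 p in a list was 2.01 to 2.02, and 5.01% to 27.8% of peaks had a q above 0.05.

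Peaks were joined to the gene extents of the RefSeq table with Python 3.11.15, numpy 2.4.6 and pandas 2.3.3. Reads and local background at a summit were recovered from the fold and −log10 p, within 0.001, for 99.9% of summits of each list. The joins were tested on simulated data. The marked end is the gene end with the higher H3K4me3 fold, and the pathway genes were named by the highest −log10 q. The genes and lists were chosen with earlier results of these data known. Alternatives changed the peak threshold, the window, the list length, the depth and the gene end.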

Additional observations from a re-analysis of the deposited data

How the results depend on the processing

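Over 17 counts of the 10 genes, 116 alternatives were computed, of which 93 stayed within 1.5 times the count and 23 did not. The sham count of end peaks, 3, became 1 with a q of 0.05 or less, 0 with a −log10 q of 5 or more, 0 with a fold of 4 or more, 1 with windows of 500 bp, 5 with windows of 2500 bp and 1 at starts only. The untreated count, 1, became 0 with either strict limit (−log10 q of 5 or fold of 4). The count with end peaks in both infarct and IL-4 became 6 with either. Interior counts under the −log10 q limit and the fold limit were 1 and 2 in sham, 2 and 2 in infarct, 0 and 0 in untreated, 2 and 2 in IL-4, 3 and 2 in WT H3K4me3, and 3 and 4 in knockout. With lists cut to 52977 peaks the IL-4 interior count was 2. Further alternatives were added after seeing the data: leaving out peaks that reach a neighbouring gene's end, and reading H3K4me3 at the annotated start, and both kept the counts within 1.5 times. The infarct and IL-4 end counts stayed within 1.5 times under every alternative run. No paired analysis was possible because each group had 1 library. In the sham and untreated lists most called peaks of these genes rested on 3 to 8 reads, and absence from a list at that depth does not show absence of NPM1.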
